A study of Homo sapiens with 12 samples.

Results

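The 35 genes described here encode proteins that make fatty acids, desaturate and elongate them, couple them to coenzyme A, store them as triglyceride and burn them in mitochondria. They were chosen by name as a pathway list, and each matched 1 identifier among the 60623 genes of the deposited count table. RNA was sequenced in 12 libraries from COLO320DM and SW480, which are 2 established human colorectal cancer lines, to ask what HKDC1 does to transcript levels in cells of this kind. HKDC1 is a hexokinase, an enzyme that adds phosphate to glucose as it enters the cell. Each line was transfected with pCMV6-HKDC1, which expresses HKDC1 from the CMV promoter, or with pCMV6-Entry, the same plasmid without the insert, and there were 3 libraries in each of the 4 groups. All cells therefore went through transfection, with 10 µg of plasmid and Lipofectamine 2000, and the medium was exchanged after 24 h. The labels give neither the share of cells that took up plasmid nor whether the replicates were separate cultures, so p-values measure the spread between these libraries.

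Cytosolic acetyl-CoA, made from citrate by ACLY or from acetate by ACSS2, is carboxylated to malonyl-CoA by the acetyl-CoA carboxylases, and FASN builds palmitate from both with NADPH. Fatty acids are activated by ACSL synthetases, and can be elongated by ELOVL enzymes and desaturated by SCD and FADS enzymes. They are either esterified to triglyceride in lipid droplets or carried into mitochondria by the carnitine palmitoyltransferases for β-oxidation. Many colorectal tumours express the synthetic arm strongly, and the transcription factor encoded by SREBF1 drives much of it.

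The libraries held between 33790733 and 45451279 counts. Levels are given as CPM, counts scaled to a library total of 1000000. HKDC1 itself ranged from 0 to 0.02485 CPM in the empty-vector libraries of COLO320DM and from 6623 to 9858 CPM after its plasmid. In SW480 the ranges were 34.08 to 35.5 CPM and 12150 to 14230 CPM, so every library matched its label. With empty vector, 5 markers of simple epithelium (EPCAM, KRT8, KRT18, KRT19 and CDH1) summed to 6305 to 9042 CPM in SW480 and to 192.4 to 250.8 CPM in COLO320DM. The keratins KRT8 and KRT18 were clearly detected in COLO320DM, at 112.3 to 151.8 and 78.2 to 96.68 CPM, while EPCAM stood at 1.358 to 2.174, KRT19 at 0.02355 to 0.1429 and CDH1 at 0 to 0.09252 CPM. The intestinal factor CDX2 stood at 1372 to 1500 CPM in COLO320DM and at 8.549 to 22.56 CPM in SW480, and VIL1 at 8.813 to 11.19 and at 265.9 to 420.2 CPM. Of 4 immune markers PTPRC read 35.48 to 38.32 CPM in COLO320DM, beside CD68 at 3.156 to 3.261, LYZ at 0.1884 to 0.4626 and CD3E at 0 to 0.02382 CPM, and CD68 was higher in SW480, at 6.51 to 12.22 CPM. Of the adipocyte genes, ADIPOQ, LEP and FABP4 were at or near 0 with empty vector in both lines. PLIN1 read 1.06 to 1.191 CPM in COLO320DM and 0.1297 to 0.3736 CPM in SW480. CIDEC read 0.06939 to 0.1884 and 0.1906 to 0.2334 CPM. Replicate 1 stood apart from replicates 2 and 3 in both lines, so results are given with and without it where it matters. The plain fit without replicate 1 was added after seeing the data. Its p-values rest on replicates 2 and 3 of each group alone. Of the 35 members, 35 passed the filter on low counts. Among them, 31 passed it in both lines, ME1 and ACSL5 passed through SW480 alone, and ELOVL2 and ELOVL4 through COLO320DM alone. These 4 had to differ between the lines.

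The order of levels within each line was read per kilobase of exon, as CPM scaled by edgeR's TMM factors and divided by the summed exon length of the gene. SCD, the Δ9 desaturase that makes oleate, was the most abundant member in both lines on this scale, at 121 ± 19.99 CPM per kb (SD, n = 3) in COLO320DM with empty vector and 117 ± 14.6 in SW480. In COLO320DM it was followed by ACLY at 72.7 ± 7.88 and HADHA, the α subunit of the mitochondrial trifunctional protein, at 71.7 ± 3.60 CPM per kb, which did not differ beyond their spread. In SW480 HADHA at 69.5 ± 7.37 came next and ACLY at 49.5 ± 7.55 after it. They were followed there by AGPAT2, an acyltransferase of phosphatidic acid synthesis, at 45.3 ± 3.18 and ACADVL, the very-long-chain acyl-CoA dehydrogenase, at 43.3 ± 6.24 CPM per kb, again within their spread. FASN took 33.3 ± 10.5 CPM per kb in COLO320DM and 24.4 ± 8.73 in SW480. The lowest members were ME1 and ACSL5 in COLO320DM, at 0.0141 ± 0.00718 and 0.0518 ± 0.00840 CPM per kb, and ELOVL2 and ELOVL4 in SW480, which had no count. These orders depend on the length used. DBI, the acyl-CoA binding protein, held rank 4 in COLO320DM at 40.7 CPM per kb of all exons, and rank 1 at 121 CPM per kb of its longest transcript, beside SCD at 119 ± 19.6. By longest transcript HADHA stood above ACLY in COLO320DM, at 101 ± 5.05 and 87.2 ± 9.45 CPM per kb. In SW480 ACADVL then stood above ACLY, at 88.8 ± 12.8 and 59.5 ± 9.06 CPM per kb.

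**Figure D1:**
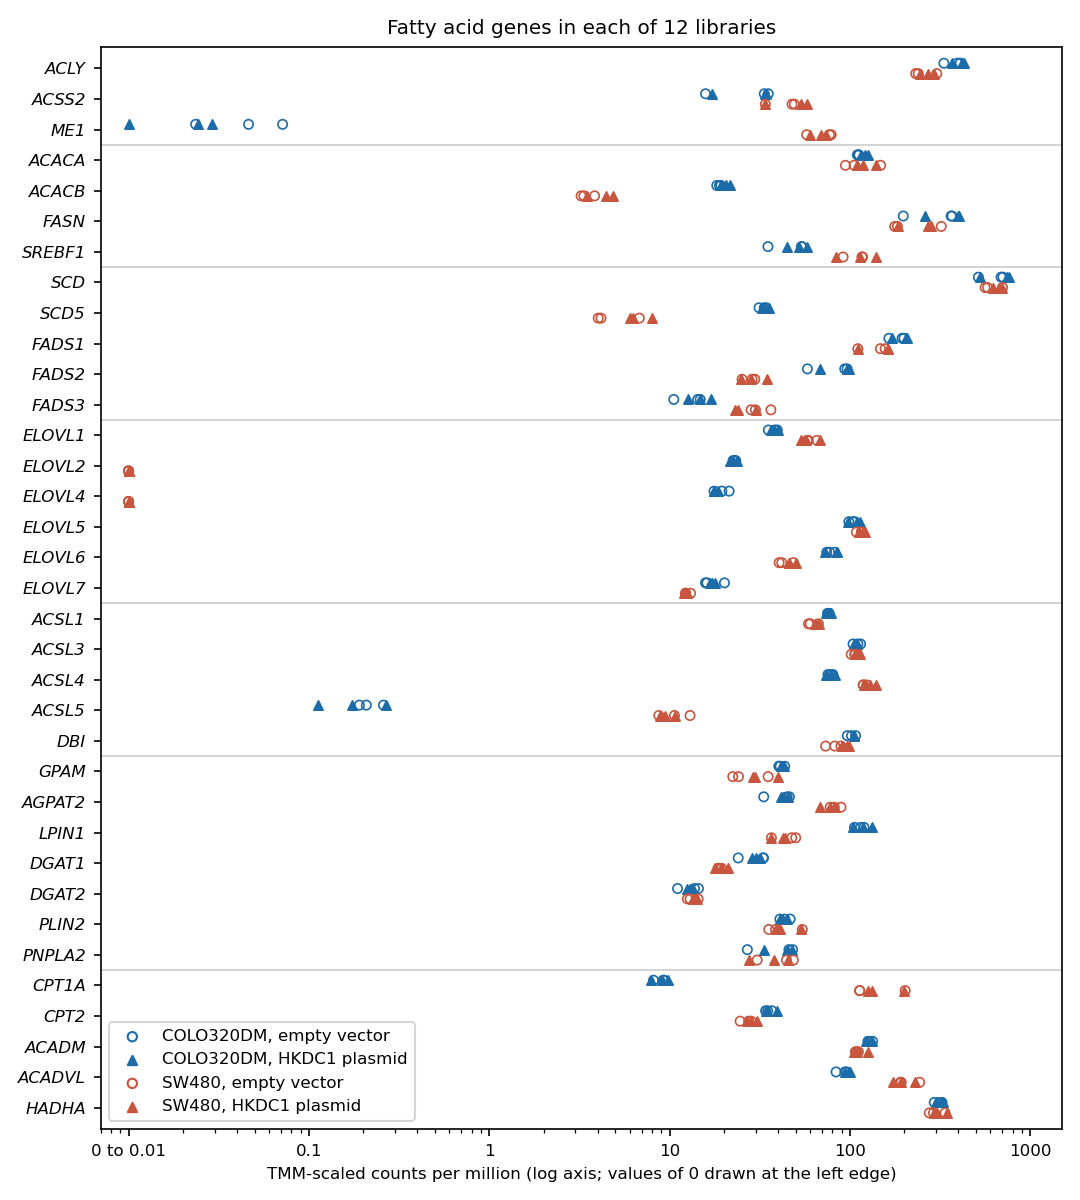
Level of each of the 35 genes in each of the 12 libraries, in TMM-scaled CPM on a log axis, grouped by role with grey lines; blue marks COLO320DM, red SW480, open circles empty vector and filled triangles the HKDC1 plasmid. Values are not divided by gene length. Circles and triangles of one colour mostly lie together, while the colours part widely for ME1, ELOVL2, ELOVL4, ACSL5 and CPT1A.

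The HKDC1 plasmid was compared with empty vector in each line. In COLO320DM none of the 35 members passed the test (edgeR quasi-likelihood F test, Benjamini-Hochberg adjusted p under 0.05 over 23684 genes), beside 0.00844% of all genes. By DESeq2 and limma-voom the count was also 0, and 0 members had an unadjusted p under 0.05, beside 1.32% of all genes. With the replicate number as a block it was 0 too, beside 0.076%. Of the fitted values, 26 were above and 9 below 0, with a median log2 fold change of 0.03 against −0.000832 over all genes. FASN, the palmitate-making synthase, stood at 198, 364 and 369 CPM in replicates 1, 2 and 3 with empty vector and at 262, 402 and 396 CPM with the HKDC1 plasmid. Replicate 1 was the lowest library of each group, and the groups overlapped, with a log2 fold change of 0.19 (SE 0.28, edgeR adjusted p = 1). SCD stood at 516, 689 and 705 CPM with empty vector and at 523, 758 and 745 CPM with the plasmid, again with replicate 1 lowest in both. Its log2 fold change was 0.09 (SE 0.16).

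The groups did not overlap in COLO320DM for 2 members, both acetyl-CoA carboxylases, where 3.52% of all genes showed such separation upward and 4.22% downward. ACACA, the cytosolic form, stood at 112, 111 and 109.9 CPM with empty vector and at 115, 125 and 122 CPM with the plasmid (log2 fold change 0.12, SE 0.14). ACACB, the form at the outer mitochondrial membrane, stood at 18.9, 19.2 and 18.3 CPM and at 21.5, 20.5 and 19.4 CPM (0.12, SE 0.12). Neither passed the test, and with 3 libraries against 3 an exact two-sided permutation test cannot go below 0.1.

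In SW480 the same comparison called 0 of 35 members by edgeR, DESeq2 and limma-voom, beside 0.0127% of all genes by edgeR. SCD5, ACACB and DBI had an unadjusted p under 0.05, 3 of 35 members beside 1.5% of all genes. The replicate numbers were taken to pair the libraries within a line, which the data bear out mainly for replicate 1. For replicates 2 and 3 of SW480, matched numbers had correlations of 0.436 and 0.313 between the plasmid groups. Swapped numbers had 0.369 and 0.467, so the matching of these libraries is an assumption of the block. With the number as a block 2 members were called, both higher with the plasmid, beside 0.76% of all genes in either direction and 0.165% upward. SCD5, another Δ9 desaturase, stood at 6.8, 4.17 and 4.02 CPM in replicates 1, 2 and 3 with empty vector and at 7.99, 6.06 and 6.24 CPM with the plasmid. The plasmid library was higher in all 3 pairs, but the groups overlapped because replicate 1 with empty vector lay above replicates 2 and 3 with the plasmid. Its log2 fold change was 0.46 (SE 0.10, edgeR adjusted p = 0.0209) with the block and 0.44 (SE 0.18, adjusted p = 1) without it.

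GPAM, the mitochondrial enzyme that adds the first acyl chain to glycerol-3-phosphate, stood at 35.2, 22.4 and 24.1 CPM with empty vector and at 39.8, 29 and 29.7 CPM with the plasmid in SW480. It was higher in 3 of 3 pairs, with a log2 fold change of 0.28 (SE 0.07, edgeR adjusted p = 0.0395) with the block and 0.27 (SE 0.16, adjusted p = 1) without. DBI stood at 89.2, 73.3 and 82.4 CPM with empty vector and at 99.1, 90.6 and 95.9 CPM with the plasmid. It was the 1 member of 35 whose SW480 groups did not overlap, where 2.16% of all genes did so upward and 2.28% downward. Its adjusted p was 0.0519 with the block (log2 fold change 0.22, SE 0.06), just outside the threshold. FADS3, a member of the fatty acid desaturase cluster on chromosome 11, had the lowest fitted value in SW480, −0.29 (SE 0.08, edgeR adjusted p = 0.104 with the block). Its libraries read 28.3, 36.5 and 29.9 CPM with empty vector and 23.0, 24.1 and 30.2 CPM with the plasmid. FADS3 was lower in 2 of 3 pairs by number, a count that depends on how replicates 2 and 3 are matched.

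The calls in SW480 moved with the libraries used. Leaving out replicate 1 of every group, without a block, called SCD5 (0.57, edgeR adjusted p = 0.00311), GPAM (0.32, 0.0146) and DBI (0.24, 0.0392), beside 3.03% of all genes. With the block, leaving out replicate 2 called 0 members, beside 0.0541% of all genes, and leaving out replicate 3 called FADS3 alone (−0.46, edgeR adjusted p = 0.0209), beside 0.204%. In COLO320DM, SCD5 read 31.3, 33.5 and 34.3 CPM with empty vector and 34, 35.5 and 32.5 CPM with the plasmid, and GPAM read 43.5, 41.0 and 40.3 and then 42.4, 43.1 and 41.5 CPM. A direct test of the difference between the lines in the plasmid effect called 0 of 35 members by edgeR, with or without the block, beside 0.00844% and 0.0422% of all genes. Without the block 0 of 35 members had an unadjusted p under 0.05, beside 1.6% of all genes. With the block 7 of 35 members had, beside 7.6% of all genes. For SCD5 that difference was 0.41 (SE 0.13, adjusted p = 0.372) with the block, and for FADS3 it was −0.46 (SE 0.13, adjusted p = 0.225). Leaving out replicate 3 with the block called 2 members in this difference, beside 0.357% of all genes. They were FADS3 (−0.61, edgeR adjusted p = 0.0124) and FASN (−0.37, adjusted p = 0.0183), which stood at −0.07 (adjusted p = 1) with the block over all libraries.

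**Figure D2:**
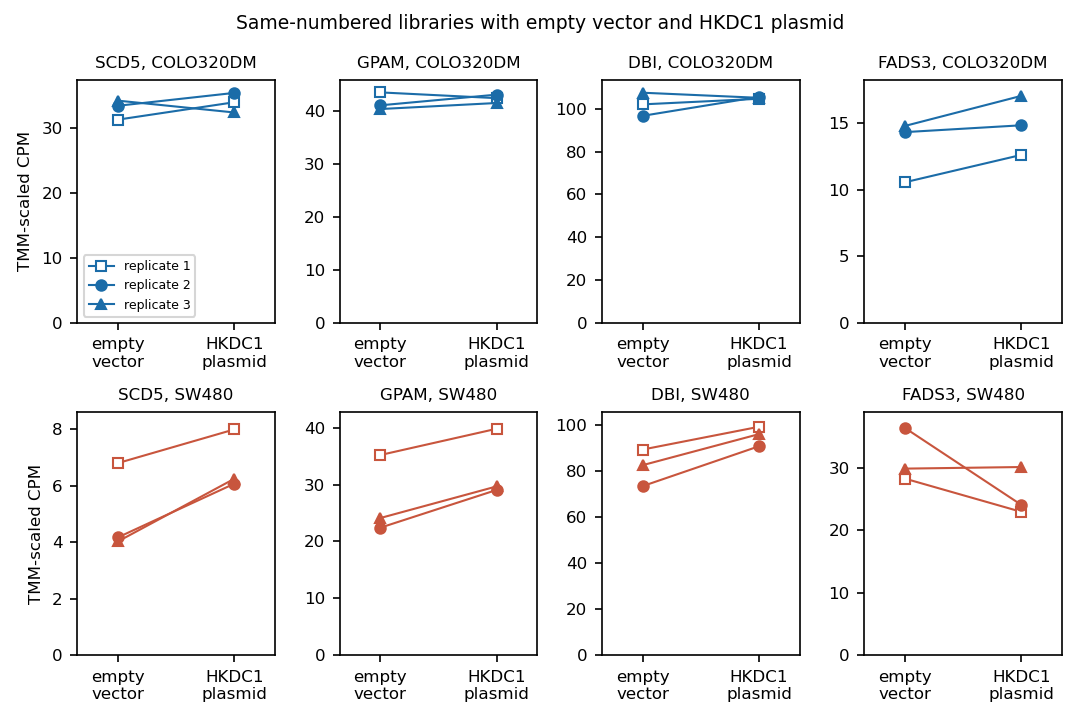
TMM-scaled CPM of SCD5, GPAM, DBI and FADS3 in COLO320DM (upper panels) and SW480 (lower panels), with a line joining the 2 libraries of the same replicate number and axes from 0. In SW480 the lines of SCD5, GPAM and DBI all climb, and replicate 1 (open squares) lies above the other replicates in both groups.

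The lines differed in far more members than the plasmid arms did. With empty vector, 25 of 35 members passed the test, 9 higher and 16 lower in SW480, beside 71.6% of all genes, 37.3% higher and 34.3% lower. Among the 31 that passed the filter in both lines there were 21, with 7 higher and 14 lower, beside 67.4% of the genes filtered in the same way (33.1% and 34.3%), so the share of members was near that of all genes. A fold of 2 or more was reached by 9 of these 31, beside 31.9%. The members' median log2 difference was −0.07, also with ELOVL2 and ELOVL4 set to their bounds, against 0.04 over all genes. With the HKDC1 plasmid 23 of 35 passed, 10 higher and 13 lower, beside 70.8% of all genes, 37.4% higher and 33.5% lower. These 23 include the 4 that passed the filter through 1 line alone and had to differ. The libraries of this comparison are other than those of the first, and 22 members were called in the same direction in both. Among those filtered in both lines these were 18 of 31, beside 61.9%. In bulk RNA, fewer cells that express a gene and less RNA per cell cannot be told apart.

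**Figure D3:**
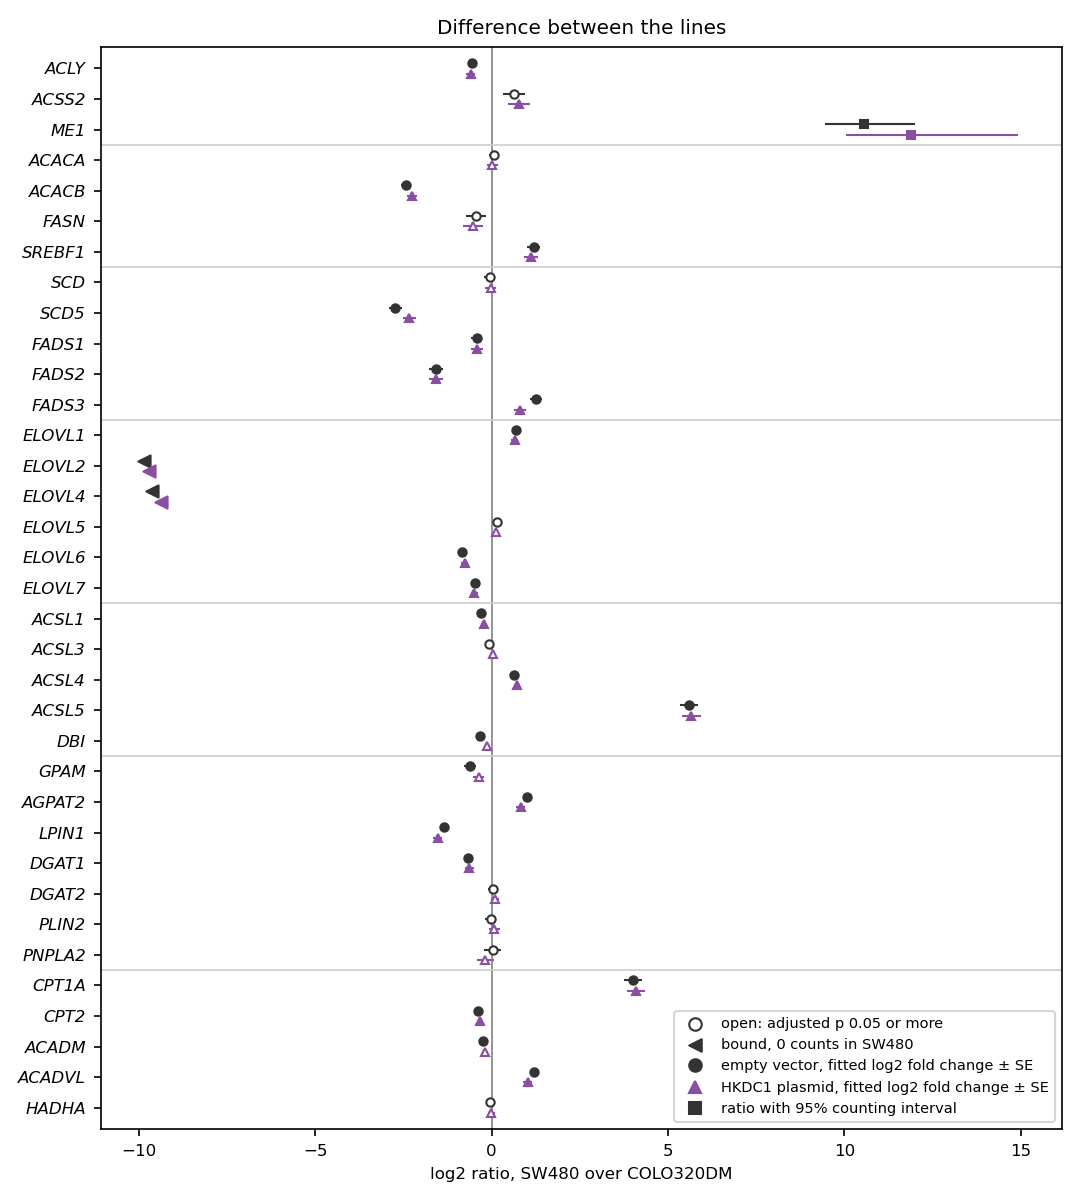
Log2 ratio of SW480 over COLO320DM for each of the 35 genes, black with empty vector and purple with the HKDC1 plasmid. Round and triangular points are fitted values ± SE (open where adjusted p was 0.05 or more). Squares are ratios of CPM with a 95% counting interval, and left-pointing triangles are bounds. ACSL5 passed the filter through SW480 alone, so its filled points are not read as a test. ME1, ACSL5 and CPT1A lie farthest to the right and ELOVL2 and ELOVL4 farthest to the left, with either plasmid. The ME1 ratio was 1520 with empty vector and 3790 with the HKDC1 plasmid, with overlapping intervals.

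Among the genes that supply acetyl-CoA and NADPH, ME1, the cytosolic malic enzyme that yields NADPH, parted the lines most. It stood at 57.6, 77.0 and 78.8 CPM in SW480 with empty vector and at 0.0236, 0.0715 and 0.0463 CPM in COLO320DM. These are 8631 counts against 6, a ratio of 1520 (95% counting interval 698 to 4140). With the HKDC1 plasmid it was 7557 counts against 2, a ratio of 3790 (1050 to 31300). ACLY was lower in SW480 (303, 232 and 239 CPM against 332, 409 and 394), with a log2 difference of −0.55 (SE 0.13, edgeR adjusted p = 0.00139). ACSS2, which activates acetate, read 34, 49.2 and 47.8 CPM in SW480 and 15.8, 33.5 and 35.3 CPM in COLO320DM. Replicate 1 was the lowest library in each line. The difference was 0.63 (SE 0.31, adjusted p = 0.0885) with all libraries and 0.51 (SE 0.07, adjusted p = 8.12e-08) without replicate 1, and the call changed under other settings as well.

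In the synthesis group ACACB was lower in SW480, at 3.35, 3.84 and 3.23 CPM against 18.9, 19.2 and 18.3 CPM (log2 difference −2.44, SE 0.14, adjusted p = 2.71e-09). SREBF1, the lipogenic transcription factor, was higher there, at 91.7, 117 and 117 CPM against 35.1, 54.2 and 53.8 CPM (1.19, SE 0.20, adjusted p = 0.000116). Its exons overlap those of RAI1 on the opposite strand over 556 bases, so reads of the pair cannot be fully separated. FASN, a known target gene of SREBF1, read 321, 183 and 177 CPM in SW480 and 198, 364 and 369 CPM in COLO320DM. The groups overlapped, and replicate 1 was the highest library in SW480 and the lowest in COLO320DM. Its log2 difference was −0.45 (SE 0.28, adjusted p = 0.166) over all libraries and −1.01 (SE 0.18, adjusted p = 0.0039) without replicate 1. ACACA overlapped between the lines (148, 106 and 94.4 CPM against 112, 111 and 109.9) and turned sign, from 0.06 (adjusted p = 0.713) to −0.14 (adjusted p = 0.0468), when replicate 1 was left out.

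Of the desaturases, 1 was higher and 3 were lower in SW480. SCD5 was lower, at 6.8, 4.17 and 4.02 CPM against 31.3, 33.5 and 34.3 CPM (log2 difference −2.73, SE 0.18, adjusted p = 1.72e-08). SCD, which makes the same Δ9 bond, read 702, 562 and 579.7 CPM in SW480 and 516, 689 and 705 CPM in COLO320DM. These values overlapped, with a difference of −0.05 (SE 0.16, adjusted p = 0.783), or −0.28 (SE 0.06, adjusted p = 3.56e-05) without replicate 1. The FADS genes lie side by side on chromosome 11. FADS1, the Δ5 desaturase, and FADS2, the Δ6 desaturase, were lower in SW480, with log2 differences of −0.43 (SE 0.16, adjusted p = 0.0297) and −1.57 (SE 0.20, adjusted p = 9.68e-06). FADS2 read 25.2, 29.7 and 28.7 CPM in SW480 and 58.1, 93.6 and 96.5 CPM in COLO320DM. FADS3 was the other way, at 28.3, 36.5 and 29.9 CPM against 10.6, 14.3 and 14.8 CPM (1.26, SE 0.16, adjusted p = 1.36e-05). FADS1 and FADS2 share 490 exon bases on opposite strands, so a small part of their counts may be exchanged. The FADS1 call was lost when any of 3 libraries was left out, with log2 differences of −0.38 and −0.40 without COLO320DM replicate 2 or 3 and −0.28 without SW480 replicate 1.

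Of the 4 elongases that passed the filter in both lines, 1 was higher and 2 were lower in SW480. ELOVL2 and ELOVL4, which extend very long polyunsaturated and saturated chains, had 0 counts in all 6 SW480 libraries and passed the filter through COLO320DM alone. In COLO320DM with empty vector ELOVL2 read 22.9, 22.5 and 23.3 CPM, 2923 counts in all, and ELOVL4 read 21.4, 17.6 and 19.5 CPM, 2492 counts. Against a floor of 3 counts over the group of 3 SW480 libraries, ELOVL2 was at least 922-fold higher in COLO320DM and ELOVL4 at least 786-fold. With the HKDC1 plasmid the bounds were 837-fold and 663-fold. ELOVL6, which extends palmitate to stearate, was lower in SW480, at 48.6, 40.5 and 41.9 CPM in SW480 against 74.4, 82.0 and 77.1 CPM (−0.83, SE 0.10, adjusted p = 4.04e-06). ELOVL7 was also lower (−0.47, SE 0.11, adjusted p = 0.00169) and ELOVL1, a broad elongase of very long saturated chains, was higher (0.69, SE 0.10, adjusted p = 3.84e-05). ELOVL5 read 116, 109 and 116 CPM in SW480 and 98.7, 104 and 106 CPM in COLO320DM, which did not overlap but did not pass the test (0.14, SE 0.08, adjusted p = 0.14).

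Promoter sequence is shown for members with a large difference between the lines and for those called for the plasmid with the block. The windows are from RefSeq on GRCh38.p14, run from 250 bases before to 50 bases after an annotated start, and are written 5′ to 3′ on the strand of the gene, here the minus strand for every one. Capitals mark the letters CCAAT (the NF-Y box), TCACNCCAC (a core of the sterol regulatory element), GGGCGG (a GC box) and CACGTG (an E-box), each on either strand. The first pair are the elongases without a count in SW480, ELOVL2 at chr6:11044256-11044555 and ELOVL4 at chr6:79947504-79947803. ME1 at chr6:83431002-83431301 and CPT1A at chr11:68844228-68844527 are 2 of the members with the opposite difference. SCD5 at chr4:82798747-82799046 and GPAM at chr10:112183716-112184015 are the members called for the plasmid in SW480 with the block. The GPAM window lies within the deposited gene, which spans chr10:112149865-112215377 on the minus strand. The annotated start of the CPT1A window also lies inside its deposited gene, which spans chr11:68754620-68844410, so part of the sequence before that start is within the gene.
ELOVL2: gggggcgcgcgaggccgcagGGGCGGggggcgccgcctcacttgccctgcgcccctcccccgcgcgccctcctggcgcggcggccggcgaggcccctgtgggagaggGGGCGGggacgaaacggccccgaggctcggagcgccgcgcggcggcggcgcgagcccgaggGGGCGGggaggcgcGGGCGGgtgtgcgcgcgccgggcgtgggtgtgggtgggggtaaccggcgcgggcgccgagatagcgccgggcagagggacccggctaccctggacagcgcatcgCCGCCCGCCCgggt
ELOVL4: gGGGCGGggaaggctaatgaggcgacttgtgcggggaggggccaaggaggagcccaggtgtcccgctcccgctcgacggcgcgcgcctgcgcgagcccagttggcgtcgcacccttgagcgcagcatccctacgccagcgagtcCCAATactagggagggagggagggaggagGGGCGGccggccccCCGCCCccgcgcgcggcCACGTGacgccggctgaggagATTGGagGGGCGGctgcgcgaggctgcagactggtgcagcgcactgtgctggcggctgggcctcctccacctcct
ME1: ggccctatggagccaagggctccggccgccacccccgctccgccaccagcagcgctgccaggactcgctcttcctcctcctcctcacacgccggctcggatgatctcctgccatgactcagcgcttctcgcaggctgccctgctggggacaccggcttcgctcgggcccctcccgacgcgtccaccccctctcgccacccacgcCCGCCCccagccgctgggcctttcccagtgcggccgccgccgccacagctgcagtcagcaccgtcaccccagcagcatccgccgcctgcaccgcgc
CPT1A: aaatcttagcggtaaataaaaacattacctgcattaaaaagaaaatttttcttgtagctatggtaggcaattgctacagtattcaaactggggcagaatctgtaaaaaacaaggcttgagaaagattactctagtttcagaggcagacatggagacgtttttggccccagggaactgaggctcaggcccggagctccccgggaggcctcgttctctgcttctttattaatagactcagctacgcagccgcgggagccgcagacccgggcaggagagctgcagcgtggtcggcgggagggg
SCD5: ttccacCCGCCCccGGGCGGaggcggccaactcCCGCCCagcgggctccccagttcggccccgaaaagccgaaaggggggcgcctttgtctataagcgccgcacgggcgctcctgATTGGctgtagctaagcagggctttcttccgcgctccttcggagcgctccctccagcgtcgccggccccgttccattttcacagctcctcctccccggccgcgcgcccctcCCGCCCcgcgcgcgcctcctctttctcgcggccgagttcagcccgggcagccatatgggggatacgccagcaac
GPAM: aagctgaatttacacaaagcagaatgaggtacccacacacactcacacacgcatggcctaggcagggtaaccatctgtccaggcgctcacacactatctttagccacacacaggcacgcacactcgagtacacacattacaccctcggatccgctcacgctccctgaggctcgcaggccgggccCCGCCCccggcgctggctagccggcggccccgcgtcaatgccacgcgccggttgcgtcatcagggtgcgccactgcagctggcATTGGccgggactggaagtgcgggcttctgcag
The ELOVL2 window is 83.7% G and C with 52 CpG dinucleotides, and the windows of ELOVL4 and ME1 are both 73.7% G and C with 32 and 30 CpG. The CPT1A window, at 50% with 13 CpG, holds none of the 4 motifs. The SCD5 and GPAM windows each hold 1 CCAAT and 4 and 1 GC boxes. A window was present for 32 of 35 members, 49 windows in all, and FASN, DGAT1 and DGAT2 are named only. Across these the median was 67.0% G and C and 26 CpG, beside 58.7% and 14 over all 35116 windows. GGGCGG occurred in 29 of 32 members. Counted by window, it was in 36 of their 49 windows (73.5%), beside 45% of all windows. CCAAT occurred in 15 members and in 19 of the 49 windows (38.8%), beside 34.6% of all windows. TCACNCCAC was found for ACSL1 and PNPLA2 (4.1% of member windows beside 1.1%), and CACGTG for DBI, ELOVL4, ELOVL5 and PLIN2 (10.2% beside 7.3%). These matches are letters in a window, and no binding was measured.

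By position on GRCh38 as deposited, ELOVL2 (ENSG00000197977) spans chr6:10980759-11044305, ELOVL4 (ENSG00000118402) chr6:79914814-79947553 and ME1 (ENSG00000065833) chr6:83210402-83431051, all on the minus strand. ELOVL4 and ME1 thus lie on the same chromosome arm and differ between the lines in opposite directions. CPT1A (ENSG00000110090) spans chr11:68754620-68844410, SCD5 (ENSG00000145284) chr4:82629539-82798796 and ACSL5 (ENSG00000197142) chr10:112374018-112428380.

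Of the acyl-CoA synthetases, ACSL5, the form typical of intestinal epithelium, read more in SW480, at 8.71, 13.0 and 10.6 CPM against 0.259, 0.191 and 0.208 CPM. These are 1297 counts against 28, a ratio of 49 (95% counting interval 33.7 to 74), and since ACSL5 passed the filter through SW480 alone, no test is given. It shares 144 exon bases with ZDHHC6 on the opposite strand, so part of the few COLO320DM counts may belong to that gene. ACSL4, which prefers arachidonate, was higher in SW480, at 124, 119 and 118 CPM against 80.5, 77.7 and 75.6 CPM (0.63, SE 0.08, adjusted p = 1.25e-05). ACSL1 was lower (−0.29, SE 0.07, adjusted p = 0.00292), and ACSL3, the form on nascent lipid droplets, read 107, 102 and 106 CPM against 115, 104 and 111 CPM (−0.07, adjusted p = 0.445). DBI was lower in SW480 with empty vector (−0.32, SE 0.09, adjusted p = 0.00424), and with the HKDC1 plasmid the difference was −0.14 (SE 0.09, adjusted p = 0.15).

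Of the triglyceride genes, 1 was higher and 3 were lower in SW480. AGPAT2 was higher, at 89.2, 77.8 and 81.9 CPM against 33.3, 44.9 and 46.2 CPM (1.00, SE 0.12, adjusted p = 6.86e-06). LPIN1, the phosphatidate phosphatase that follows it in the pathway, was lower, at 36.7, 50.1 and 47.6 CPM against 106, 119.7 and 114 CPM (−1.34, SE 0.13, adjusted p = 6.6e-07). GPAM, the step before AGPAT2, was lower at −0.61 (SE 0.16, adjusted p = 0.00357) with empty vector, and with the HKDC1 plasmid it was −0.37 (SE 0.16, adjusted p = 0.0533), which limma-voom called (adjusted p = 0.0385). Of the diacylglycerol acyltransferases that finish triglyceride, DGAT1 was lower (−0.66, SE 0.12, adjusted p = 0.000292), and DGAT2 read 13.0, 12.6 and 14.4 CPM against 11.1, 13.7 and 14.5 CPM (0.02, SE 0.12, adjusted p = 0.857). PLIN2, the coat protein of lipid droplets, and PNPLA2, the triglyceride lipase, overlapped between the lines, with differences of −0.03 (SE 0.15, adjusted p = 0.887) and 0.03 (SE 0.24, adjusted p = 0.913).

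Of the oxidation genes, CPT1A, the carnitine palmitoyltransferase of the outer mitochondrial membrane that limits entry of long chains, was higher in SW480. It read 203, 113 and 114 CPM there with empty vector and 8.15, 9.34 and 9.21 CPM in COLO320DM, a log2 difference of 4.01 (SE 0.25, adjusted p = 8.26e-09). Replicate 1 was the highest SW480 library, and without it the difference was 3.62 (SE 0.08). CPT2, the partner enzyme of the inner membrane, was lower in SW480, at 27.4, 24.6 and 28.3 CPM against 36.9, 35 and 34.1 CPM (−0.40, SE 0.09, adjusted p = 0.00192). Among the dehydrogenases, ACADVL was higher, at 244, 193 and 190.4 CPM against 83.8, 95.7 and 93.8 CPM (1.20, SE 0.12, adjusted p = 1.15e-06), and ACADM, for medium chains, was lower by a small amount (−0.24, SE 0.08, adjusted p = 0.0203). The ACADM call was lost in 4 alternatives, with adjusted p from 0.0535 to 0.0584. CPT2 and ACADM each share exon bases with a neighbouring gene, as do 16 of the 35 members. HADHA read 337, 276 and 291 CPM against 294, 314 and 324 CPM, which overlapped (−0.04, SE 0.10, adjusted p = 0.701).

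With replicate 1 left out of every group, 31 of 35 members were called between the lines with empty vector, beside 79.3% of all genes. With the HKDC1 plasmid 29 of 35 were called, beside 78.5%. Both counts include the 4 members that passed the filter through 1 line alone and had to differ. The members gained with empty vector were ACSS2, FASN, SCD, PLIN2, HADHA and ACACA. With all libraries, 9 members were called in neither line comparison, and DBI, GPAM, ACADM and ACSS2 in 1 of them. Each of these 4 was called in both under at least 1 other setting, so no difference between the comparisons is read from them. The difference between these line comparisons is the difference between the lines in the plasmid effect, tested above.

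Replicate 1 was described member by member, since earlier results of these data had shown it apart, and no test was made. In COLO320DM both replicate 1 libraries lay below all 4 other libraries of the line for 18 of 35 members, beside 21.3% of all genes, and above them for 5, beside 20.6%. In SW480 both lay above for 15 members, beside 27.1% of all genes, and below for 8, beside 28.4%. The directions were opposite for 8 members (7.06% of all genes), all lower in COLO320DM and higher in SW480: ACLY, FASN, SCD, ELOVL1, ELOVL6, AGPAT2, ACADVL and HADHA. For FASN, replicate 1 minus the mean of the others was −0.75 in COLO320DM and 0.58 in SW480 on the log2(CPM + 0.1) scale. Another 7 members were lower in both lines, namely ACSS2, SREBF1, FADS1, FADS2, LPIN1, DGAT1 and PNPLA2, and ELOVL7, ACSL1 and PLIN2 were higher in both, together 10 members beside 18.4% of all genes. ACSS2 was −1.05 in COLO320DM and −0.61 in SW480, and PNPLA2 −0.63 and −0.59. CPT1A, SCD5, GPAM and ACACA were higher in replicate 1 of SW480 alone, at 0.73, 0.54, 0.52 and 0.43. The labels give no batch or date for the libraries, and what sets replicate 1 apart was not tested.

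**Figure D4:**
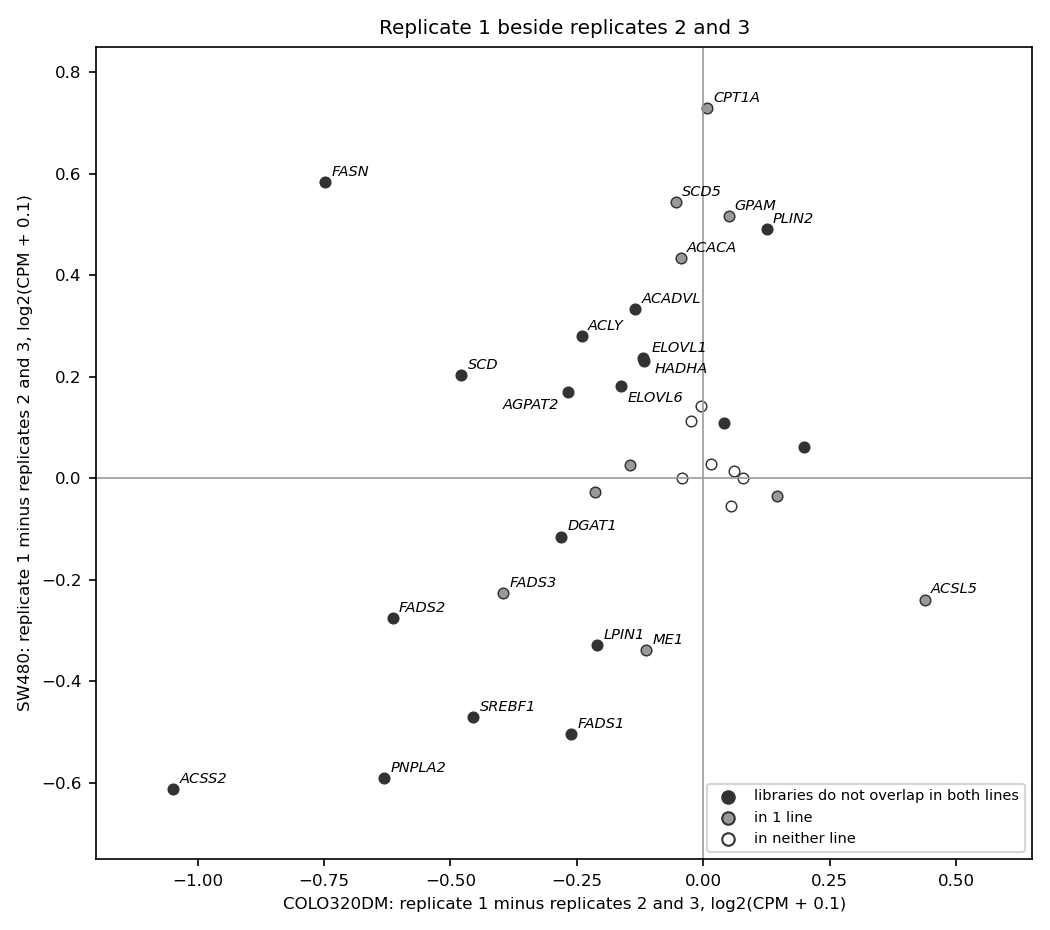
Mean of the 2 replicate 1 libraries minus the mean of the 4 libraries of replicates 2 and 3, on the log2(CPM + 0.1) scale, for each of the 35 genes in COLO320DM (horizontal) and SW480 (vertical). Black points have replicate 1 apart from all 4 other libraries in both lines, grey in 1 line, white in neither. The upper left holds the 8 genes with opposite directions, FASN farthest out, and the lower left the 7 that were lower in replicate 1 of both lines.

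Another 73 genes of the same pathways were listed, and 70 passed the filter. Between the lines with empty vector 25 were higher and 27 lower in SW480, and with the HKDC1 plasmid also 25 and 27, in each case 52 of 70. Over all genes 71.6% were called with empty vector and 70.8% with the HKDC1 plasmid. Of the 70, 5 passed the filter through 1 line alone (ELOVL3, ACSL6, PLIN5, G0S2 and ACADL), and 4 of these were among the called. Among the 65 that passed in both lines there were 48 with empty vector, 23 higher and 25 lower, beside the 67.4% given above for genes filtered in that way. Of the 24 oxidation genes that passed in both lines 6 were higher and 13 lower with empty vector. Of the 16 storage genes 7 were higher and 4 lower, and of the 18 synthesis-side genes 7 and 6. Of the 7 genes of uptake, activation and thioesterases 3 were higher and 2 lower. Over all genes filtered in that way 33.1% were higher and 34.3% lower. The largest values upward were those of G0S2, an inhibitor of the lipase PNPLA2, which had 1172 counts in SW480 and 3 in COLO320DM (ratio 413, 95% counting interval 141 to 2010), and ACADL, the long-chain acyl-CoA dehydrogenase, with 195 counts against 6 (ratio 34.4, interval 15.5 to 94.8), both of which passed through SW480 alone. The next were AGPAT4 at a log2 difference of 3.43, MLXIPL, the carbohydrate-responsive lipogenic factor, at 3.23, and the hormone-sensitive lipase LIPE at 2.01. CD36, a fatty acid translocase, was the lowest at −8.20 (SE 0.34), with 873.7, 701.8 and 692.6 CPM in the COLO320DM libraries against 4.20, 1.61 and 1.91 CPM in those of SW480. It was followed by PPARGC1A at −4.30, CPT1C at −4.01, PLIN5 at −3.88, which passed through COLO320DM alone, and PDK4 at −3.35. Of these 70 genes the plasmid comparisons called 0 in either line by edgeR, with or without the block. Without the block an unadjusted p under 0.05 was reached by 1 gene in COLO320DM, the sterol receptor NR1H2 at 0.26 (SE 0.12), and by 0 in SW480, beside 1.32% and 1.5% of all genes. With the block it was reached by 6 and 10 of the 70, beside 5.46% and 9.96% of all genes.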

How the data were processed

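Poly-A RNA was sequenced in 12 libraries, 3 in each of 4 groups taken from the sample titles. The authors deposited 1 table of raw counts per gene with positions and exon lengths. HISAT2 2.1.0, limma and GRCh38 are named, with no role, in the submitters' processing notes, and the read counter and strand setting are not given in the sources used here. The deposited length equalled the union of the listed exons for 60623 of 60623 genes.

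The 4 groups were fitted together by edgeR 4.0.16 under R 4.3.3, with filterByExpr (minimum count 10, minimum total 15), TMM factors of 0.903 to 1.04, glmQLFit with robust dispersions and glmQLFTest. Benjamini-Hochberg adjusted p-values over 23684 genes under 0.05 were called. The fit left 8 residual degrees of freedom, with a biological coefficient of variation of 0.157. CPM were scaled by TMM, except those of HKDC1, which were over the library total. SE was taken as the fitted log2 value over the square root of F. Bounds use a floor of 3 counts over a group, and ratios an exact binomial interval at 95%, which covers counting error only. The script was tested on simulated data. DESeq2 1.42.0, limma-voom (limma 3.58.1), other size factors, no filter, the compared groups alone and leaving out libraries were alternatives. Motifs were counted in RefSeq windows of 300 bases.

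The replicate numbers come from the labels. For libraries that share a number, deviations from their group's mean had correlations of 0.403, 0.134 and 0.119 (COLO320DM) and 0.723, 0.436 and 0.313 (SW480), so the numbers were taken to pair the libraries within a line. Crossing replicates 2 and 3 gave similar correlations (0.15 and 0.16, and 0.369 and 0.467), so the pairing mostly separates replicate 1. The fit with a replicate block within each line had 4 residual degrees of freedom over all 12 libraries and a coefficient of 0.0596.

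All 35 members were named, by role. Of the other pathway genes, at most the 5 highest and the 5 lowest called were named in a comparison, and where none was called those with the smallest p. The members, lists and tests were chosen with earlier results of these data known. Exons of 16 members overlap another gene, and reads from opposite strands could not be told apart. Pseudogene copies took at most 0.0144% of a member's counts.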

Additional observations from a re-analysis of the deposited data

Results flagged for a closer look

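For 8 members every replicate 1 library lay below all replicate 2 and 3 libraries in COLO320DM and above all of them in SW480, so the same contrast pointed in opposite directions in the lines. The difference between the lines in this contrast was not tested, and over all genes 7.06% showed opposite directions. On the log2(CPM + 0.1) scale, replicate 1 minus the others in COLO320DM and then in SW480 was −0.748 and 0.584 for FASN, −0.478 and 0.203 for SCD, and −0.241 and 0.28 for ACLY. It was −0.268 and 0.17 for AGPAT2, −0.162 and 0.183 for ELOVL6, and −0.118 and 0.237 for ELOVL1. For the oxidation genes it was −0.134 and 0.333 for ACADVL and −0.117 and 0.232 for HADHA.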

How the results depend on the processing

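The alternatives that left out replicate 1 of every group, or joined the replicate block with DESeq2 or limma-voom, were chosen after seeing the data. Of the 35 members, 25 kept their direction and their side of the threshold between the lines with empty vector under every alternative run. With the HKDC1 plasmid only the 26 members called in at least 1 line comparison were followed through the alternatives, and 20 did so. The 9 members called in neither were not followed there, so these counts are over unlike sets. Leaving out 1 library gave 24 to 26 members called with empty vector, 21 to 23 with the HKDC1 plasmid, and 0 to 0 in either plasmid comparison and in the difference between them. For the plasmid in SW480, the replicate block called 2 members, 2 without replicate 1, 0 without replicate 2 and 1 without replicate 3. Over all genes these settings called 180 of 23684, 538 of 24168, 13 of 24023 and 49 of 24035. The block in DESeq2 called 3 members and in limma-voom 0, beside 98 and 79 of 23684 genes. Leaving out replicate 1 of every group without a block called 3, beside 720 of 23759 genes. For the difference between the lines in the plasmid effect, the replicate block without replicate 3 called 2. The block changed no other plasmid call. Between the lines same-numbered libraries had correlations of 0.154, 0.0799 and 0.0882 in the empty-vector arm and 0.0949, 0.0216 and 0.0538 in the other, so the numbers were not taken as pairs there, and a replicate block called 26 and 25 members, beside 76.3% and 75.7% of all genes. That block also called ACSS2 with empty vector (0.69, edgeR adjusted p = 5.76e-05) and GPAM (−0.38, 0.00709) and ACADM (−0.18, 0.0359) with the HKDC1 plasmid, and library totals called DBI there (−0.23, 0.0123). Not every library correlated best with its own number.

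Members with a difference near 0 between the lines with empty vector changed sign. When 1 library, or replicate 1 of every group, was left out, the log2 difference ran from −0.14 to 0.19 for ACACA, −0.28 to 0.026 for SCD, −0.084 to 0.099 for DGAT2, −0.23 to 0.091 for PLIN2, −0.19 to 0.22 for PNPLA2 and −0.16 to 0.016 for HADHA. Under library totals in place of TMM, ACACA was −0.033, DGAT2 −0.058 and PNPLA2 −0.041. With the block and without replicate 1, ACACA was −0.14, DGAT2 −0.054 and PNPLA2 −0.0040. With the block and without replicates 2 and 3 in turn, SCD was 0.083 and 0.085, PLIN2 0.023 and 0.018, and HADHA 0.015 and 0.0085. For the plasmid in SW480, PNPLA2 ran from −0.35 to 0.0093 when 1 library was left out, and its difference between the lines from −0.41 to 0.0078. The cause was not tested. Depth limited the fold of ELOVL2 and ELOVL4 to a bound and left ME1 in COLO320DM with 6 and 2 counts.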
